A study of Mus musculus with 24 samples.

Results

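The enzymes that remove superoxide and peroxides were followed in blood and cerebral cortex of neonatal mice whose mothers had breathed nano-size particulate matter (nPM) or filtered air. The 10 genes were Sod1, Sod2, Cat, Gpx1, Gpx4, Prdx1, Prdx2, Prdx3, Prdx5 and Prdx6, found by gene symbol among the 48709 genes of the count table, and each symbol matched 1 gene. The table held 24 libraries, 12 from each tissue, with 3 libraries for each combination of sex and exposure. The nPM pups had been exposed in utero for 5 hours a day on 3 days a week, from gestational day 2 until birth, and the control pups had received filtered air on that schedule. The labels give the nPM concentration as 300 mg/m3, the strain as C57BL/6J and the age as 3 to 5 days, whereas the methods state the concentration in μg/m3, name the C57BL/6NJ substrain and give a single age at the upper end of that range. No genotype was altered in any group. Per the methods, the 3 pups of each sex and exposure came from different litters. Whether a male and a female shared a litter is not stated. The labels do not tie a library to a litter or a blood library to a cortex library. The p-values therefore measure the spread between these libraries, part of which may be litter.

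Superoxide dismutases turn superoxide into hydrogen peroxide, Sod1 in the cytosol and Sod2 in the mitochondrial matrix. Catalase (Cat), a heme enzyme of peroxisomes, splits hydrogen peroxide without a reducing partner. Glutathione peroxidases reduce peroxides at the expense of glutathione: Gpx1 is the abundant soluble selenoenzyme, and Gpx4 is the selenoenzyme that reduces lipid hydroperoxides within membranes and thereby restrains ferroptosis. Peroxiredoxins use a reactive cysteine, and most are recharged by thioredoxin. Prdx1 and Prdx2 are mainly cytosolic, Prdx3 is mitochondrial, Prdx5 is found in mitochondria, peroxisomes and cytosol, and Prdx6 is the 1-Cys enzyme that also acts on phospholipids. Red cells, which carry iron and oxygen together, are known for large amounts of catalase, Gpx1 and Prdx2 protein, whereas neurons are known for a comparatively low catalase content.

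Library totals ran from 22301409 to 33804371 counts in cortex and from 13595647 to 21895536 in the blood libraries used. RNA integrity numbers spanned 9.4 to 9.9 for cortex and 7.5 to 9.3 for blood. Hemoglobin genes took 66.2% to 76.8% of the counts in blood and 0.0246% to 0.068% in cortex. Libraries are named here by their label numbers, V1 to V24. V2, a control female blood library, stood apart: 22461 genes had a count against 13254 to 17273 in the other blood libraries, its hemoglobin share was 50.1%, and its normalization factor was 6.56 against 0.653 to 1.08. The methods left out 1 blood sample for a distinct distribution of counts without naming it, and V2 was left out of the blood comparisons below, which leaves 2 control females. The labelled tissues carried their defining markers. All 9 neuronal markers had counts in each cortex library, with a summed level of 6927 to 8151 TMM-scaled counts relative to the library total (CPM), and all 11 red cell markers found in the table had counts in each blood library. TMM scales the libraries of a tissue to a common level over most genes, so scaled CPM is compared between libraries of 1 tissue and not between tissues.

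Each member was well covered. The lowest count of any member was 1046 in cortex, for Gpx1, and 51 in blood, for Prdx5. Some of the counts may be shared with other loci. Prdx5 (chr19:6906697-6910106, mm10, minus strand) overlaps Trmt112 on the other strand by 409 bases, and Prdx2 (chr8:84969587-84974834, plus strand) overlaps Rnaseh2a and Junb, both on the other strand, by 181 and 351 bases. The sources used here do not say whether counting used strand. Of the 10 members, 4 had a processed copy elsewhere in the genome with at least 95% identity over 200 bases or more. Gpx4 (chr10:80047166-80056439, plus strand) had the closest, Gpx4-ps2, which is 99.7% identical over 733 bases and lies at chr10:45875291-45876086. Gpx4-ps2 and a second Gpx4 copy were not in the count table, so no count for them could be set beside those of Gpx4. The copies of Prdx1, Prdx2 and Sod1 that were in the table had at most 161 counts in any cortex library and at most 41 in any blood library used.

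The sequence just before the start site is shown for 4 members. Prdx1 and Sod1 carry an antioxidant response element (ARE) core, and Prdx2 and Cat are among those that stood far higher in blood. Gpx1, which stood farthest toward blood, is not shown. RefSeq promoters (GRCm38.p6, which is mm10) were found for 9 members, with 12 start sites, and not for Prdx6. The letters searched on both strands of the 250 bases before each start site were TGACNNNGC for the ARE core, which NRF2-type factors are known to bind, CCNCNCCC for the CACCC-type boxes known to be bound by Krüppel-like and Sp factors, and NGATAN, with A or T first and A or G last, for the GATA box bound by the red cell factor GATA1. The sequences below stop where the gene of the count table's annotation begins. Capitals mark the ARE core in Prdx1 and Sod1 and the CACCC-type boxes in Prdx2 and Cat, where overlapping matches are joined.
Prdx1 (chr4:116685349-116685543, plus strand): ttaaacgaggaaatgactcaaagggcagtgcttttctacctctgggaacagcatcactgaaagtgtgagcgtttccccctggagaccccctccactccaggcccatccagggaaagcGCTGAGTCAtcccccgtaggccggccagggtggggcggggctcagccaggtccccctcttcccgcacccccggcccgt
Sod1 (chr16:90220512-90220741, plus strand): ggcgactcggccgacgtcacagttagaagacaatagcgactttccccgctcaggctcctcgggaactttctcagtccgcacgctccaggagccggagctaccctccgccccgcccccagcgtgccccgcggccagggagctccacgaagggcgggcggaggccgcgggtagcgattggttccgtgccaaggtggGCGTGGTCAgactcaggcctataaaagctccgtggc
Prdx2 (chr8:84969372-84969586, plus strand): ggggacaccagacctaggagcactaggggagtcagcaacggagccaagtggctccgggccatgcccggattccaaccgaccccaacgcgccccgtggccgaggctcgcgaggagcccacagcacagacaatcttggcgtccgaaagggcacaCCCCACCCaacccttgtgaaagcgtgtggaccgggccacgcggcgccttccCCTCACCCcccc
Cat (chr2:103485161-103485403, minus strand): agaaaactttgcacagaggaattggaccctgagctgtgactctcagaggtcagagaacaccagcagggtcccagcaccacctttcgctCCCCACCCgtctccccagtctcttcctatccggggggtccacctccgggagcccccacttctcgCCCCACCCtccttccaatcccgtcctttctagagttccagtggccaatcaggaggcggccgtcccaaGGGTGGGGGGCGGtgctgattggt

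The ARE core occurred once in Prdx1, at bases -133 to -125, and once in Sod1, at bases -56 to -48, in both on the minus strand of the gene. It was not found in the 250-base windows of the other 7 members with a promoter, and it occurs in 10.2% of 32851 RefSeq promoters of that length. The CACCC-type box was common, at 45.9% of promoters, and matched in 8 of the 9 members with a promoter, Gpx1 being the exception. Most of the Gpx1 window (chr9:108338830-108339079) lies inside the gene of the count table's annotation, which starts at 108338903. The bases before that start were therefore little covered for Gpx1. Prdx1 and Sod1 each held 3 such matches as well, which are not in capitals. The Sod1 ARE core overlaps 1 of its CACCC-type matches. GATA boxes matched at start sites 2, 3 and 4 of Gpx4, not at its site 1, and at no other member. Those windows lie inside the span of Gpx4 in the count table's annotation, and sites 2 and 3 overlap and share a match. Of all promoters 26.5% had a GATA match, a share counted per window, whereas Gpx4 had 4 windows. A match is a description of these letters and no evidence of binding.

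In cortex Sod1 had the highest level per exon length. Its RPKM (reads per kilobase of exon, scaled to the library total, from library totals) was 183 ± 8.74 (SD, n = 12), against 97.8 ± 5.18 for Prdx2, the next in order. The ranges of Sod1 and Prdx2 did not overlap. Gpx4 followed at 73.8 ± 12.5, Prdx5 at 58.4 ± 4.01, Prdx3 at 50.8 ± 2.41, Prdx1 at 44.2 ± 2.05, Sod2 at 40.6 ± 2.08, Gpx1 at 31.8 ± 1.71, Cat at 30.1 ± 1.23 and Prdx6 at 18.1 ± 1.36. Neighbours overlapped in range for Prdx2 and Gpx4, Gpx4 and Prdx5, Prdx5 and Prdx3, Prdx1 and Sod2, and Gpx1 and Cat. Within libraries the order was steadier, with Gpx4 above Prdx5 and Prdx5 above Prdx3 in 12 of 12. Sod1 made up 29.1% of the summed RPKM of the 10 members. Gpx4 varied most, with a coefficient of variation of 17.9% over the 12 libraries on the scaled CPM, whereas the other 9 lay between 3.94% for Cat and 7.99% for Prdx5.

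Blood was dominated by Gpx1. Its RPKM was 1823 ± 391 (SD, n = 11), 66.5% of the members' summed RPKM, and every library of blood lay above every value of Cat, the next in order at 486 ± 97.5. Prdx2 followed at 357 ± 75.4 and held 13.2% of the sum. Cat exceeded Prdx2 in 10 of 11 libraries, with overlapping ranges. The remaining 7 members were far lower, from 20.2 ± 9.18 for Sod1, 17.8 ± 5.12 for Gpx4 and 17.1 ± 4.68 for Prdx3 to 4.17 ± 0.945 for Sod2, 3.78 ± 1.14 for Prdx1, 2.03 ± 0.66 for Prdx6 and 1.9 ± 0.398 for Prdx5. Among these, Sod1 was above Gpx4 in 7 of 11 libraries, Gpx4 above Prdx3 in 6, Sod2 above Prdx1 in 7 and Prdx6 above Prdx5 in 6, so these neighbours do not differ beyond their spread. The coefficients of variation in blood ran from 13% for Prdx5 to 45.9% for Sod1 and were wider than in cortex for each of the 10 members.

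**Figure D1:**
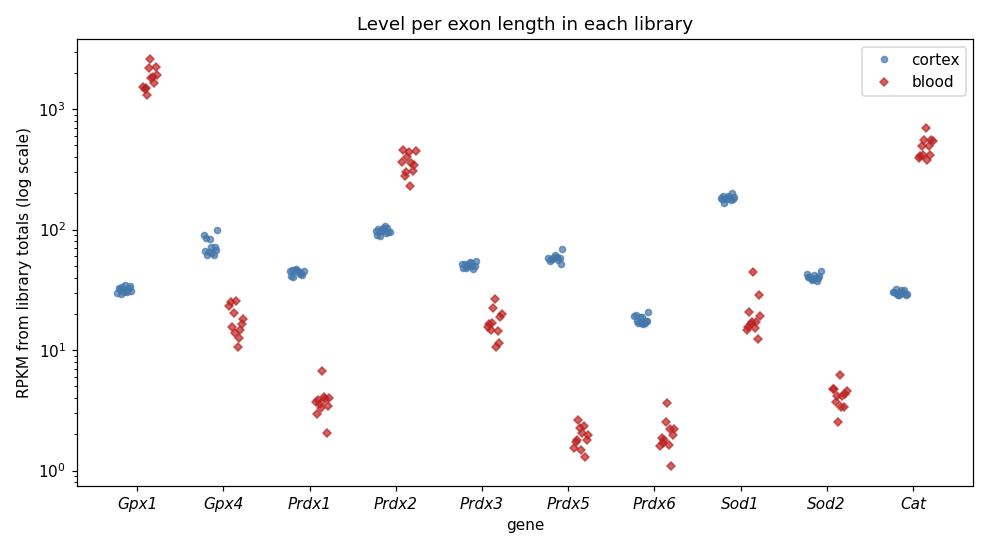
RPKM of each member (log axis) in the 12 cortex libraries (circles) and the 11 blood libraries used (diamonds), computed from counts, exon length and library totals. Gpx1, Cat and Prdx2 lie higher in blood and the other 7 members lie higher in cortex, with Sod1 highest in cortex and Gpx1 in blood.

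Control libraries of the 2 tissues were compared to place these levels (6 cortex and 5 blood libraries). As a share of all counts, Gpx1 was 44.4 ± 1.66 CPM in cortex (SD, n = 6) and 2617 ± 369 in blood (n = 5), a 59-fold difference toward blood. Cat stood at 77.6 ± 1.78 CPM in cortex and 1191 ± 222 in blood, 15.3-fold higher in blood, and Prdx2 at 293 ± 19.6 and 1068 ± 262, 3.65-fold higher in blood. The other 7 were a larger share of the counts in cortex, from 3.18-fold for Prdx3 and 4.51-fold for Gpx4 to 11.4-fold for Sod1, 12.8-fold for Prdx1 and 32.8-fold for Prdx5. In none of the 10 did the 2 tissues overlap. In tissue samples, fewer cells of a type and less RNA per cell cannot be told apart.

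The direction for the lower members depends on the scaling, and for Prdx1 and Sod1 also on the count filter. The median log2 difference, cortex over blood, of the 10275 genes tested was 0.24 under TMM and 4.35 with library totals alone, a shift of 4.11. Under TMM each of the 10 members passed the test (edgeR's quasi-likelihood test, adjusted p from 2.17e-16 for Gpx1 to 0.00343 for Prdx1), 9 of them higher in blood and Prdx5 higher in cortex. With a minimum of 10 counts in every library 7 passed, and Prdx6, Sod1 and Sod2 did not (adjusted p = 0.567, 0.327 and 0.943). Under that filter Prdx1 passed in the other direction, as higher in cortex, and the Sod1 estimate turned toward cortex as well. With V2 put back among the controls 8 passed, and Sod1 and Sod2 did not (adjusted p = 0.193 and 0.147). Of all genes tested, 46.8% passed as higher in cortex and 39.5% as higher in blood. With library totals Gpx4, Prdx1, Prdx3, Prdx6, Sod1 and Sod2 turned to higher in cortex. Relative to the median of all genes, cortex over blood, Gpx1 stood at -10.25 under TMM and -10.22 with totals, Cat at -8.31 and -8.26, Prdx2 at -6.26 and -6.18, Prdx3 at -2.69 and -2.64 and Gpx4 at -2.27 and -2.17. Prdx6, Sod2, Sod1 and Prdx1 fell between -1.05 and -0.67, and Prdx5 was at 0.68 and 0.69. Gpx1, Cat and Prdx2, the enzymes for which red cells are known, stood farthest toward blood.

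Blood RNA left in the dissected cortex was estimated from hemoglobin, a calculation added after the data had been seen. The hemoglobin share of counts in cortex, set against that in control blood, corresponds to 0.0333% to 0.092% of the cortex RNA. At the mean blood level of each gene, that amount would give 1.75% to 5.2% of the Gpx1 level measured in cortex, at most 1.45% for Cat, at most 0.334% for Prdx2 and at most 0.0312% for the other 7. Cortex hemoglobin was 0.0246% to 0.0447% of counts in the 8 libraries of sequencing lane 2 and 0.0615% to 0.068% in the 4 of lane 3, and each lane held equal numbers of nPM and control libraries. Any part of residual blood in the nPM comparisons was not tested.

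With both sexes together, no member was called as changed by nPM in cortex. The question was whether prenatal nPM altered the level of these genes in neonatal cortex, with 6 nPM and 6 control libraries and a model of exposure, sex and RNA integrity. Across 20857 genes tested, 3 (0.0144%) passed at an adjusted p under 0.05 and 5.67% had an unadjusted p under 0.05, while of the 10 members 0 passed and 0 had an unadjusted p under 0.05. The estimates were small in both directions, 8 higher and 2 lower with nPM, with a median log2 fold change of 0.03 over the members and -0.00242 over all genes. Without V9 there were 5 higher and 5 lower with a median of 0.00568, and the Gpx4 estimate changed sign in 5 of the 12 fits that each left out 1 library. Nor did the 6 nPM values of any member lie wholly above or below the 6 control values, which 0.197% of all genes did.

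Gpx1, the soluble selenoperoxidase, came closest. Its scaled CPM had a lowest value of 41.7, a median of 45.2 and a highest of 45.5 in the control libraries, and 43.1, 47.5 and 49.5 in the nPM libraries. In 5 of the 6 nPM libraries Gpx1 was above every control, and the exception was a female, V9. The log2 fold change was 0.08 (SE 0.04, 95% interval -0.00458 to 0.17, adjusted p = 0.862), a difference of 5.91%. A two-sided exact permutation test of the scaled CPM gave p = 0.039, unadjusted and 1 of 20 such tests over the members and both tissues, where the smallest p possible is 0.00216.

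The remaining cortex intervals were narrow for most members. Prdx2 differed by 3.71% (95% interval -3.11% to 11%), Sod1 by 3.38% (-3.33% to 10.6%), Cat by 2.54% (-3.28% to 8.71%), Prdx1 by 1.95% (-4.67% to 9.02%) and Sod2 by 0.954% (-5.97% to 8.39%). Prdx3 differed by -0.265% and Prdx6 by 1.2%. Prdx5 differed by -4.83% (log2 -0.07, SE 0.06, adjusted p = 0.886). The widest interval belonged to Gpx4, from -14% to 24.2% around an estimate of 3.38%, and its control values ran from 105 to 174 against 112 to 154 with nPM.

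**Figure D2:**
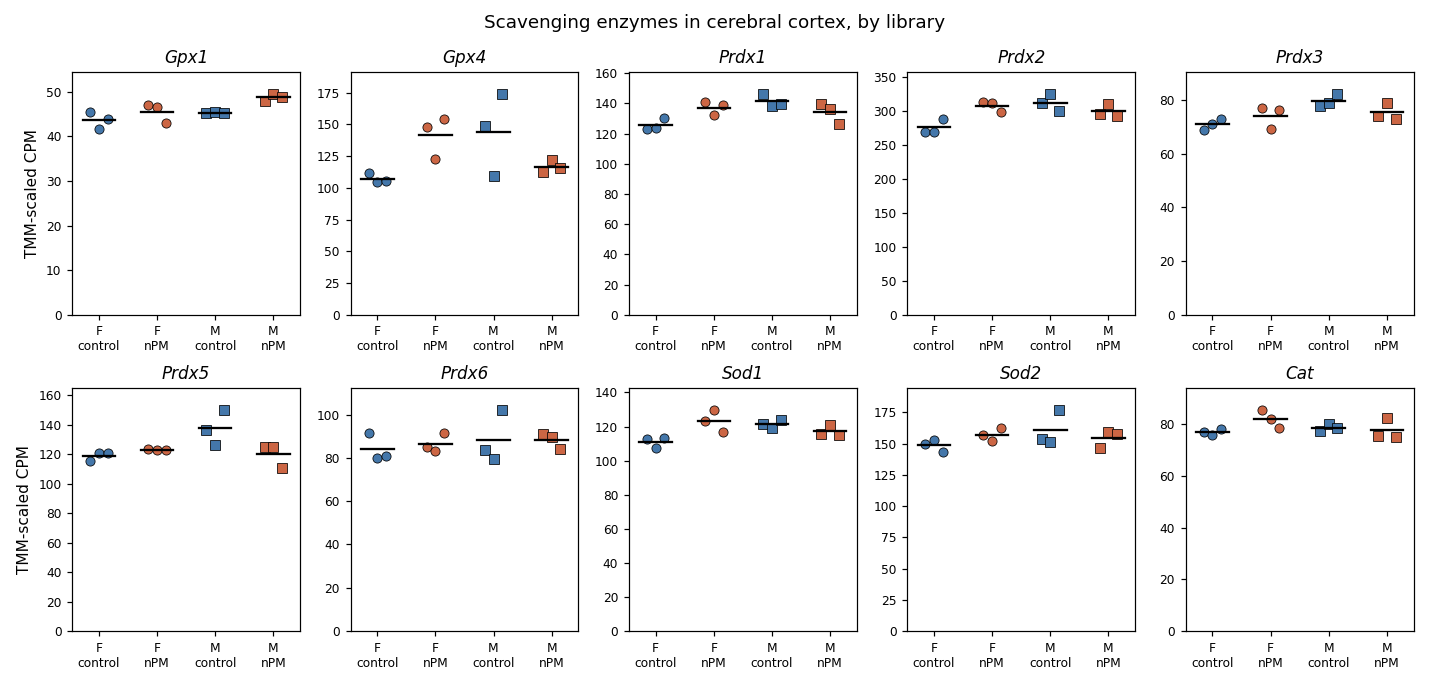
TMM-scaled CPM of each member in the 12 cortex libraries, by sex (circles female, squares male) and exposure (blue control, orange nPM), with the mean of 3 libraries as a bar and a vertical axis from 0. Gpx4 spans 105 to 174 and is higher with nPM in females and lower by mean in males, while most other members stay within a narrow band.

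In female cortex Gpx4, the phospholipid hydroperoxidase, rose with nPM. It was 112 in V10, 105 in V12 and 105 in V19, the control females, and 154 in V9, 148 in V11 and 123 in V20, the nPM females (scaled CPM). The lowest nPM value was above the highest control value. Means were 107 ± 3.78 (SD, n = 3) and 142 ± 16.7 (n = 3), and the log2 fold change was 0.38 (SE 0.07, 95% interval 0.22 to 0.54, edgeR adjusted p = 0.0306), an increase of 30.4%. Across the 21731 genes tested in females, 1.11% passed at this threshold and 15.4% had an unadjusted p under 0.05. The call rested on few libraries: the adjusted p was 0.00136 without V20 and 0.0466 without V10, but 0.0539 without V9, 0.126 without V12, 0.167 without V11 and 0.178 without V19, and 0.247 when both sexes were fitted together. Within lanes the Gpx4 difference in females, on the log2 scale, was 0.48 in lane 2 (2 libraries a group) and 0.22 in lane 3 (1 a group).

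The other 9 members were also higher by estimate in nPM females, and none of them passed the adjusted threshold. Sod1, the cytosolic dismutase, was 113, 107 and 113 in the control females V10, V12 and V19 and 117, 123 and 130 in the nPM females V9, V11 and V20 (log2 fold change 0.15, SE 0.05, adjusted p = 0.167). Prdx2, the abundant cytosolic peroxiredoxin, was 269, 269 and 288 in the controls and 297, 313 and 311 with nPM (0.15, SE 0.05, adjusted p = 0.183). Prdx1 was 123, 123 and 131 against 139, 141 and 132 (0.11, SE 0.04, adjusted p = 0.258). In each of these the lowest nPM library was above the highest control, and Gpx4, Sod1, Prdx2 and Prdx1 were the 4 members with an unadjusted p under 0.05. Groups also did not overlap for Cat and Prdx5, which makes 6 of 10 members, all with nPM higher, against 21.1% of the genes tested. For Prdx5 the gap was narrow, 119 ± 3.18 (SD, n = 3) in controls and 123 ± 0.252 with nPM (n = 3), a difference of 2.89%. Cat came closer still to overlapping, with 78.2 in its highest control, V19, and 78.3 in its lowest nPM library, V9. Gpx1, Prdx3, Prdx6 and Sod2 overlapped between the groups, with log2 fold changes between 0.04 for Prdx3 and 0.08 for Sod2. The median over the 10 members was 0.08, against -0.00221 over all genes.

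In male cortex most members were lower by estimate with nPM, without a call. Of 21670 genes, 0 passed at an adjusted p under 0.05 (0%) by edgeR, 978 had an unadjusted p under 0.05 (4.51%), and DESeq2 called 3. By estimate 9 of the 10 members were lower with nPM and Gpx1 was higher. Gpx4 was 149, 110 and 174 in the control males V14, V16 and V24 and 112, 122 and 116 in the nPM males V13, V15 and V23, so that 1 control lay below all nPM values. The fitted difference for Gpx4 in males was -0.42 on the log2 scale (SE 0.12, adjusted p = 0.962), and -0.26 without V24 and -0.74 without V23. Prdx5 was 137, 126 and 150 in the control males and 125, 125 and 111 with nPM, and these did not overlap (log2 fold change -0.28, SE 0.07, adjusted p = 0.962). These 2 members had unadjusted p-values under 0.05, 0.00702 for Gpx4 and 0.00238 for Prdx5. The Prdx5 difference sat mainly in lane 3, where the nPM library V23 over the control V24 gave a log2 difference of -0.43, against -0.07 in lane 2. For Gpx4 these were -0.59 and -0.12. Gpx1 was 45.2, 45.5 and 45.3 in the control males and 48, 49.5 and 48.8 with nPM, higher in each nPM library (0.11, SE 0.07, adjusted p = 0.962). Non-overlap held for Gpx1 and Prdx5, 2 of 10 members, against 9.2% of genes.

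The difference between the sexes was tested directly as the exposure-by-sex term, the male minus the female log2 effect. At an adjusted p under 0.05 edgeR passed 0 of 20857 genes (0%) and 0 members. With an unadjusted p under 0.05 were 9.68% of genes and 5 of the 10 members, all with the nPM effect lower in males. Gpx4 had the largest term, -0.74 (SE 0.18, 95% interval -1.13 to -0.34, unadjusted p = 0.00126, adjusted p = 0.321), followed by Prdx5 at -0.27 (SE 0.1), Sod1 at -0.22 (SE 0.07), Prdx2 at -0.2 (SE 0.08) and Prdx1 at -0.2 (SE 0.08), with adjusted p-values of 0.403 to 0.472. DESeq2 put Gpx4 past the threshold (adjusted p = 0.0257) among 50 of the 20857 genes, whereas limma voom called 0 genes. Exact permutation of the exposure labels, a test added after the data had been seen, within each sex over 400 arrangements gave two-sided unadjusted p-values of 0.025 for Gpx4, 0.005 for Prdx5, 0.01 for Sod1, 0.015 for Prdx2 and 0.015 for Prdx1. The smallest p these arrangements allow is 0.005. The other members ranged from 0.075 for Prdx3 to 0.79 for Prdx6. Such shuffling assumes no nPM effect in either sex, which is more than equal effects in both. Prdx3, Sod2, Cat and Prdx6 had negative terms of -0.11, -0.14, -0.1 and -0.11, and Gpx1 had 0.04.

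The sexes were also compared within each exposure, a comparison added after the data had been seen. Male controls were above female controls by estimate in 10 of 10 members, with a median log2 difference of 0.15 against -0.00705 over all genes. For Prdx1, Prdx2, Prdx3, Prdx5 and Sod1 the lowest control male lay above the highest control female, 5 of 10 members against 19.1% of genes. Prdx3, the mitochondrial peroxiredoxin, showed this with 68.8, 71.2 and 73 in control females and 77.7, 78.7 and 82.3 in control males. Unadjusted p-values were under 0.05 for 6 members, Gpx4, Prdx1, Prdx2, Prdx3, Prdx5 and Sod1, and for 14.3% of genes. Past an adjusted p of 0.05 there were 0 members and 0.177% of genes by edgeR, while DESeq2 called Gpx4 and Prdx2 among 352 genes, against 37 genes by edgeR. The fitted differences, male over female, were 0.41 (SE 0.13, adjusted p = 0.191) for Gpx4, 0.2 (SE 0.07, adjusted p = 0.206) for Prdx5, 0.19 (SE 0.05, adjusted p = 0.181) for Prdx2 and 0.17 (SE 0.06, adjusted p = 0.196) for Prdx1.

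Among the nPM pups the sexes were closer. By estimate 2 members were higher and 8 lower in males, with a median of -0.05. Gpx4 had an unadjusted p under 0.05 (log2 difference -0.33, SE 0.15, adjusted p = 1), as did 2.64% of genes, and 0 members and 0.0192% of genes passed the adjusted threshold. The sexes did not overlap for Gpx1, higher in males, and Gpx4, lower in males, 2 members against 8.87% of genes. The control females enter both the comparison of the sexes in controls and the nPM effect in females, so those values are not independent of each other.

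Other measures differed along with these groups in cortex. V24, a control male, held the highest value of 5 of the 10 members, and it also had the highest oligodendrocyte lineage sum, 725 scaled CPM against 392 to 577 in the other cortex libraries. V14, another control male, had a choroid plexus sum of 31.3 against 232 to 503 elsewhere. In females the 5 choroid plexus markers were all higher by estimate with nPM, with sums of 334 to 392 in controls and 381 to 503 with nPM, and 0 of the 5 passed the adjusted threshold. Neuronal sums were 6927 to 7796 in control females and 7451 to 7854 with nPM, and 7375 to 8151 and 7425 to 7724 in males. Astrocyte and radial glial sums were 2912 to 3275 and 2774 to 3099 in females, and 2696 to 3608 and 2908 to 3244 in males. In females 4 of these 7 markers were higher and 3 lower by estimate with nPM (median 0.00778). Of the higher ones 1 passed the adjusted threshold, and of the lower ones 1 had an unadjusted p under 0.05. Oligodendrocyte lineage sums were 473 to 577 in control females and 394 to 495 with nPM. By estimate 2 of those 6 markers were higher and 4 lower, 2 of the lower with an unadjusted p under 0.05. In males 3 of the 6 were higher and 3 lower. Microglial sums overlapped between exposures in both sexes (156 to 202 in females, 148 to 257 in males), as did the endothelial sums (131 to 140 and 94.4 to 141). In males, by estimate, 7 of 7 microglial markers were lower with nPM (median -0.26, 2 with an unadjusted p under 0.05), and 5 of 5 endothelial and 5 of 5 choroid plexus markers were higher (medians 0.13 and 0.74, 0 with an unadjusted p under 0.05). In females 5 of 7 microglial markers were lower, 1 with an unadjusted p under 0.05. Summed neutrophil markers reached at most 3.36, lymphocyte markers 1.42 and platelet markers 14.4 in any cortex library. Their part in the member results was not tested.

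In blood, with V2 left out, no member was called as changed by nPM with both sexes in the fit (6 nPM and 5 control libraries). Of 9977 genes tested, 0 passed at an adjusted p under 0.05 (0%) by edgeR, DESeq2 called 1, and 310 (3.11%) had an unadjusted p under 0.05. Among the members 0 passed and 0 had an unadjusted p under 0.05, and 0 had groups that did not overlap, against 0.221% of genes. By estimate 8 were higher and 2 lower with nPM, with a median of 0.09 against 0.00241 over all genes. That direction rested on single libraries: without V4 there were 4 higher and 6 lower with a median of -0.07, and without V3 the median was 0.01. Sod1 was farthest from no difference, at 0.48 (SE 0.28, 95% interval -0.09 to 1.06, adjusted p = 1). Its scaled CPM had a lowest value of 7.73, a median of 10.5 and a highest of 13.2 in controls and 9.44, 12.2 and 28.9 with nPM. V3 and V7, with 28.9 and 18.8, lay above every control, and the other 4 nPM libraries lay within the range of the controls.

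The red cell trio was not called either, and its intervals were wide. Gpx1 had 2050, 2841 and 3086 (lowest, median and highest) in controls and 1699, 2362 and 3743 with nPM, a difference of -3.66% with an interval from -33.4% to 39.4%. Cat had 777, 1305 and 1516 in controls and 971, 1250 and 1836 with nPM, 7.28% (-25% to 53.6%). Prdx2 had 546, 1228 and 1471 in controls and 818, 1004 and 1590 with nPM, -5.22% (-36% to 40.3%). These intervals are several times wider than those in cortex, and differences within these bounds are not excluded by these libraries. Prdx6 differed by 12.7%, Prdx1 by 9.84%, Sod2 by 8.42%, Prdx3 by 6%, Prdx5 by 3.7% and Gpx4 by 3.44%, each with an interval that spans 0.

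**Figure D3:**
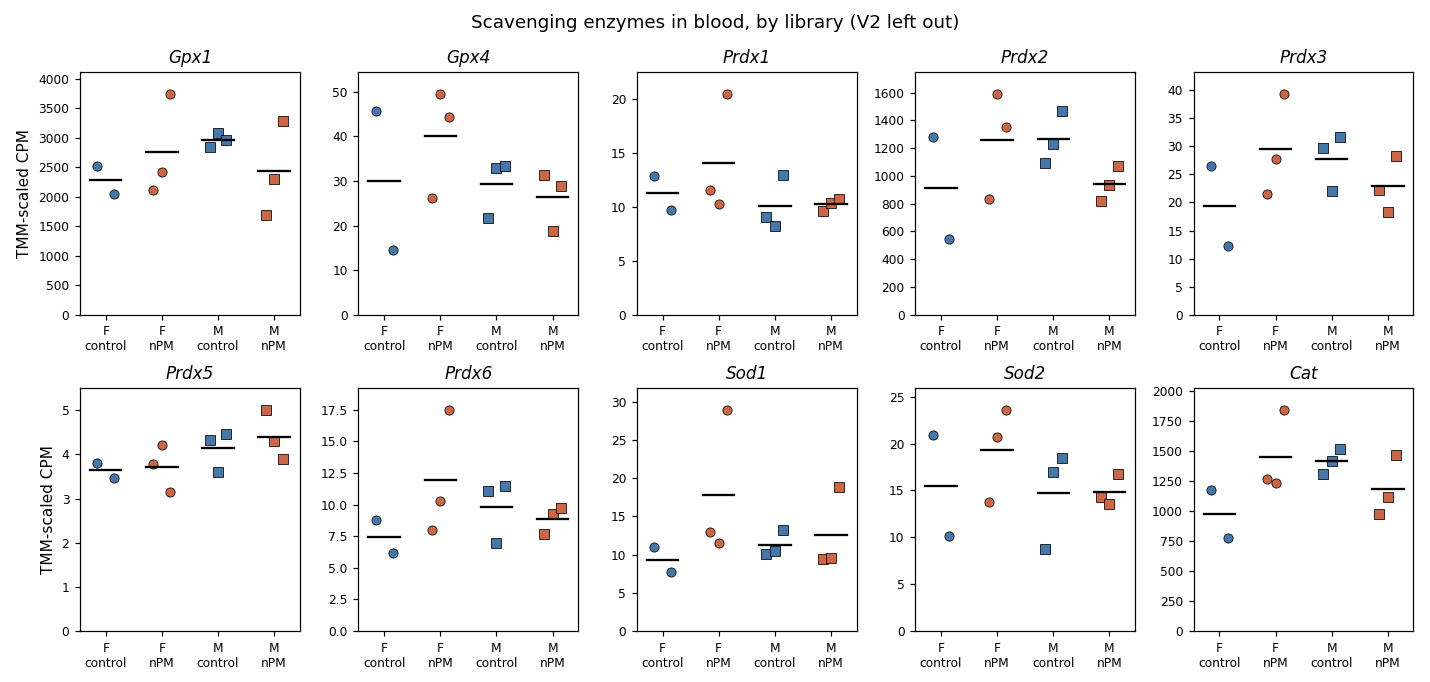
TMM-scaled CPM of each member in the 11 blood libraries used, by sex (circles female, squares male) and exposure (blue control, orange nPM), with group means as bars and a vertical axis from 0 in each panel. The control females are 2 libraries that lie far apart for most members, and Sod1 reaches 28.9 in 1 nPM female.

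Female blood had 3 nPM and 2 control libraries, and the controls disagreed. Gpx4 was 45.7 in V17 and 14.4 in V4, and Prdx2 was 1283 and 546. V4 held the lowest value of 6 of the 10 members among the 11 blood libraries, and V3, an nPM female, the highest of 7. By estimate 10 of 10 members were higher with nPM, with a median log2 fold change of 0.7 against -0.0133 over all genes, and 0 members passed the adjusted threshold, as did 0.0182% of the 11013 genes. Unadjusted p-values were under 0.05 for Sod1, Prdx6 and Prdx3, 3 of 10 members against 8.04% of genes. Sod1 was 11 in V17 and 7.73 in V4 and 13, 11.5 and 28.9 in the nPM females V1, V18 and V3 (log2 fold change 1.07, SE 0.4, adjusted p = 0.592). Prdx6 was 8.76 and 6.16 against 7.97, 10.3 and 17.5 (0.82, SE 0.34, adjusted p = 0.597), and Prdx3 was 26.5 and 12.3 against 21.5, 27.7 and 39.3 (0.82, SE 0.37, adjusted p = 0.619). Of these, only Sod1 had groups that did not overlap. Cat was the other such member, 1172 and 777 against 1268, 1231 and 1836, which makes 2 of 10 against 19.3% of genes. Without V4, 0 members had an unadjusted p under 0.05, and without V18, 5 did and Sod1, Prdx3 and Prdx6 passed the adjusted threshold, in a fit that called 571 of 11281 genes against 2 with V18. With V4 or V17 left out, the lone control is assumed to vary like the other libraries. Without the RNA integrity covariate Sod1 alone had an unadjusted p under 0.05. Within lanes the Sod1 difference was 1.33 in lane 1, which holds V3 and V4, and 0.06 in lane 3.

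Platelet and red cell transcripts were also higher by estimate in female blood. All 6 platelet markers were higher by estimate with nPM, 5 of them with an unadjusted p under 0.05 and 0 past the adjusted threshold. Their sums were 132 to 175 scaled CPM in control females and 203 to 422 in nPM females, with the lowest in V4 and the highest in V3. All 11 red cell markers tested were higher by estimate, with 0 at an unadjusted p under 0.05, and their sums overlapped between exposures. All 8 lymphocyte markers were lower by estimate, 1 of them with an unadjusted p under 0.05 and 0 past the adjusted threshold, with sums of 29.4 to 37.4 in controls and 9.25 to 35.2 with nPM. Their part in the member results was not tested.

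Male blood showed no call. Among 10602 genes, 0 passed at an adjusted p under 0.05 (0%) by edgeR, DESeq2 called 1, and 409 (3.86%) had an unadjusted p under 0.05. Of the members 0 were in either class, 8 were lower and 2 higher by estimate, with a median of -0.13. Without V8, 6 were higher and 4 lower with a median of 0.0995, and without V7 the median was -0.39. Prdx2 was 1096, 1228 and 1471 in the control males V22, V6 and V8 and 818, 937 and 1072 in the nPM males V21, V5 and V7, and it was the 1 member whose groups did not overlap, against 11% of genes (log2 fold change -0.41, SE 0.27, adjusted p = 1). Cat (-0.16, SE 0.28) and Gpx1 (-0.1, SE 0.3) overlapped. In males the 9 neutrophil markers tested were all higher by estimate with nPM, 4 of them with an unadjusted p under 0.05, and their sums overlapped at 67.6 to 141 in controls and 110.5 to 124 with nPM. By estimate 6 of 6 platelet markers and 9 of 11 red cell markers were lower, with 0 at an unadjusted p under 0.05. V5, an nPM male, stood apart with a neuronal marker sum of 35.3 against 1.18 to 10.9 in the other blood libraries used and an oligodendrocyte lineage sum of 37.7 against 7.57 to 17. The part of these in the member results was not tested.

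The exposure-by-sex term in blood passed for 0 of 9977 genes (0%) by edgeR and for 0 members, while DESeq2 called 4 genes. Unadjusted p-values were under 0.05 for 10.7% of genes and for Prdx3 (-1.23, SE 0.42), Prdx6 (-1.11, SE 0.39) and Prdx2 (-1.25, SE 0.47), each with an adjusted p of 0.452. The term was negative for 10 of 10 members, with a median of -0.93 against 0.09 over all genes, and of -0.56 without V3 and -0.57 without V4. Markers of other cells went both ways. Negative were 6 of 6 platelet markers, all 6 with an unadjusted p under 0.05, and 11 of 11 red cell markers, 4 of them with an unadjusted p under 0.05. Positive were 9 of 9 neutrophil markers tested, 2 of them with an unadjusted p under 0.05, and 8 of 8 lymphocyte markers, 1 of them. Both of the 2 oligodendrocyte lineage markers tested were also positive with an unadjusted p under 0.05. Their part in the member results was not tested. Exact permutation within sex, over 200 arrangements, gave two-sided unadjusted p-values of 0.13 for Prdx3, 0.22 for Prdx6, 0.115 for Prdx2 and 0.04 for Cat. The other members ranged from 0.24 for Gpx1 to 0.745 for Prdx5.

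**Figure D4:**
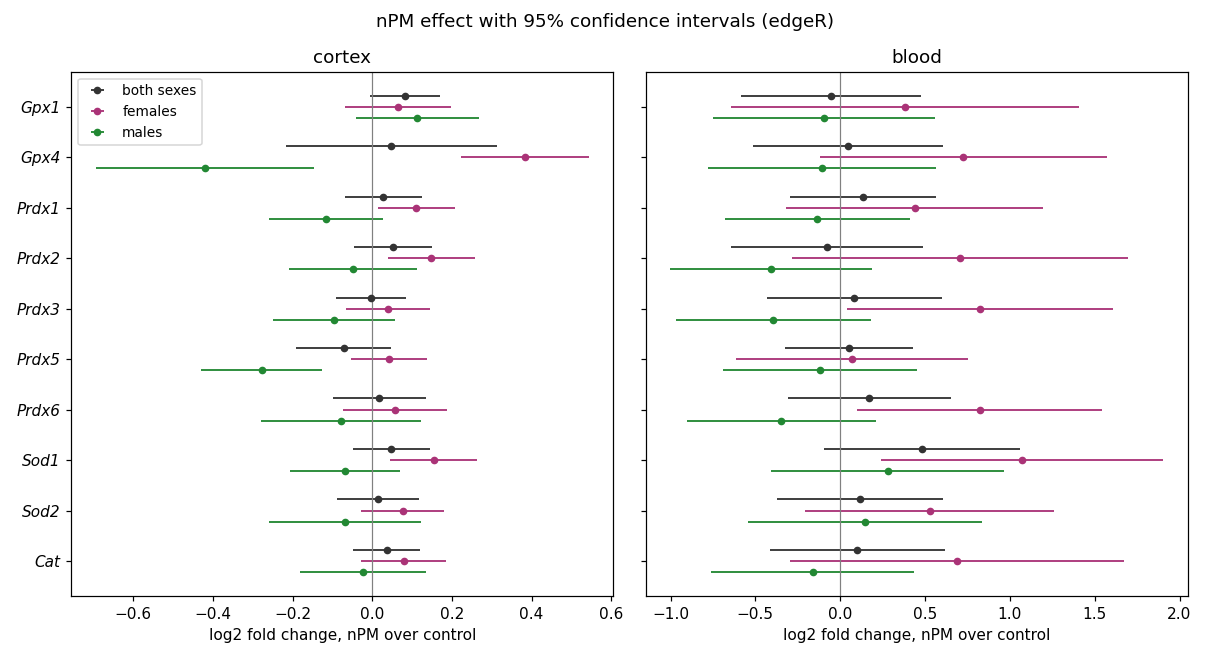
Log2 fold change of each member, nPM over control, with 95% confidence intervals from edgeR, in cortex (left) and blood (right, wider axis), for both sexes together, females and males. In cortex the interval excludes 0 for Gpx4, Prdx1, Prdx2 and Sod1 in females and for Gpx4 and Prdx5 in males, and in blood for Prdx3, Prdx6 and Sod1 in females.

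V2 differed from the other blood libraries in the makeup of these enzymes. In plain CPM it had 100 of Prdx1 against 6.26 to 20.5 in the other 11, 46.6 of Prdx5 against 2.75 to 5.61, 25.5 of Prdx6 against 5.29 to 17.5 and 31.1 of Sod2 against 9.73 to 23.6. Its Gpx1 (1725 against 1905 to 3744), Cat (792 against 991 to 1837) and Prdx2 (617 against 696 to 1392) were below the lowest of the others. Gpx4, Prdx3 and Sod1 lay within their range. The red cell trio was thus low in V2, and 4 of the other 7 members were high.

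The less abundant enzymes of the same families were few and low. Of 9 such genes 6 were tested in cortex and 2 in blood. Prdx4, the peroxiredoxin of the endoplasmic reticulum, stood at 16.6 ± 1.15 scaled CPM in control cortex (SD, n = 6) and 18.1 ± 1.49 with nPM (log2 fold change 0.13, SE 0.07, adjusted p = 0.868). Ccs, the copper chaperone that loads Sod1, was at 15.5 ± 0.552 and 15.5 ± 1.58. Gpx3, the secreted glutathione peroxidase, was at 5.87 ± 0.459 and 6.37 ± 0.576 (0.12, SE 0.09, adjusted p = 0.886), and Sod3, the extracellular dismutase, at 1.86 ± 0.315 and 1.55 ± 0.281 (-0.26, SE 0.16, adjusted p = 0.884). In female cortex 1 of 8 tested, Gpx7 (0.25, SE 0.11, adjusted p = 0.276), had an unadjusted p under 0.05. Blood had Ccs at 3.9 ± 1.35 in controls (n = 5) and 4.33 ± 2.13 with nPM (n = 6) and Prdx4 at 0.383 ± 0.122 and 0.551 ± 0.163, with adjusted p-values of 1. Gpx3 and Sod3 had no count in several blood libraries, where a count of 0 allows a level of up to 0.137 to 0.221 CPM, and were not tested. In none of the 8 nPM comparisons did a gene of this list pass the adjusted threshold.

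The recharging enzymes were tested in full, 20 of 20 in both tissues. These supply thioredoxin, glutaredoxin, glutathione and NADPH. With nPM 0 of the 20 passed in cortex (12 higher, 8 lower, median 0.02) and 0 in blood (12 higher, 8 lower, median 0.08). The smallest p-values in cortex were those of Txnip, the thioredoxin-binding inhibitor (0.25, SE 0.1, adjusted p = 0.862), and Glrx2, a mitochondrial glutaredoxin (-0.08, SE 0.04, adjusted p = 0.864), and in blood those of Sesn2 (0.62, SE 0.37) and Gclc (-0.26, SE 0.19), both with an adjusted p of 1. In female cortex Txn1, cytosolic thioredoxin, had 0.15 (SE 0.05, adjusted p = 0.17) and Txnrd1, its reductase, 0.12 (SE 0.05, adjusted p = 0.246), with 15 of 20 higher and a median of 0.06. In male cortex Srxn1, the sulfiredoxin that restores overoxidised peroxiredoxins, had -0.27 (SE 0.09, adjusted p = 0.962) and Glrx2 -0.14 (SE 0.07, adjusted p = 0.962), with 13 of 20 lower. The smallest p-values of the sex term in cortex belonged to Txn1 (-0.24, SE 0.08, adjusted p = 0.403) and Gsr, glutathione reductase (-0.2, SE 0.09, adjusted p = 0.509). In female blood Gss, glutathione synthetase (1.92, SE 0.46, adjusted p = 0.471), and Txn1 (1.06, SE 0.34, adjusted p = 0.591) had the smallest, in male blood Pgd (0.66, SE 0.29, adjusted p = 1) and Txn2 (-0.45, SE 0.26, adjusted p = 1), and for the blood sex term Gss (-2.58, SE 0.77) and Txn1 (-1.3, SE 0.4), both with an adjusted p of 0.452.

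Selenoprotein synthesis, on which Gpx1 and Gpx4 depend, showed no call with nPM in either tissue. In cortex 4 of the 9 genes tested were higher and 5 lower (median -0.01), with Secisbp2l (-0.09, SE 0.04) and Pstk (-0.15, SE 0.07) lowest in p, both at an adjusted p of 0.862. In female cortex Secisbp2l (-0.13, SE 0.05, adjusted p = 0.223) and Sepsecs (-0.21, SE 0.08, adjusted p = 0.232) were lowest in p, and Sephs1 followed (0.12, SE 0.06, adjusted p = 0.3). Male cortex had Secisbp2l (-0.1, SE 0.07) and Pstk (-0.17, SE 0.12), both at 0.962, and the sex term Sepsecs (0.28, SE 0.12, adjusted p = 0.477) and Sephs2 (-0.11, SE 0.08, adjusted p = 0.654). In blood 8 were tested, 7 higher and 1 lower, with Sephs1 (-0.55, SE 0.37) and Trnau1ap (0.65, SE 0.54) lowest in p, both at an adjusted p of 1. Sephs1 (-1, SE 0.54, adjusted p = 0.651) and Eefsec (0.5, SE 0.34, adjusted p = 0.7) led in female blood, Secisbp2l (0.45, SE 0.31) and Sephs1 (-0.65, SE 0.54) in male blood, and Secisbp2l (0.95, SE 0.46, adjusted p = 0.469) and Eefsec (-0.61, SE 0.45, adjusted p = 0.6) in the blood sex term.

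Genes whose products make superoxide or peroxide were likewise without a call. Of 12 tested in cortex 6 were higher and 6 lower, with Ncf1 (-0.2, SE 0.14, adjusted p = 0.885) and Nox4 (0.27, SE 0.19, adjusted p = 0.886) lowest in p, and of 7 in blood 6 were higher and 1 lower. In female cortex Ncf1 (-0.35, SE 0.17, adjusted p = 0.355) and Maoa (0.08, SE 0.05, adjusted p = 0.476) led. In male cortex Duox2 had 1.12 (SE 0.48) and Nox4 0.55 (SE 0.31), both at 0.962, and Duox1 (-0.94, SE 0.51, adjusted p = 0.579) and Duox2 (0.96, SE 0.63, adjusted p = 0.653) led in the sex term. In female blood Cyba, a membrane subunit of the phagocyte oxidase, had 0.69 (SE 0.32, adjusted p = 0.619). Male blood was led by Ncf4 (-1.55, SE 0.5), and the blood sex term by Ncf4 (-1.74, SE 0.67, adjusted p = 0.452) and Cyba (-0.82, SE 0.38, adjusted p = 0.456).

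Between the control tissues under TMM, 46.8% of the 10275 genes tested passed as higher in cortex and 39.5% as higher in blood. Most genes of any list would therefore differ. Of the 20 recharging genes 20 differed, 6 higher in cortex and 14 in blood. Those standing farthest toward blood, cortex over blood, were Gclm, the modifier subunit of glutamate-cysteine ligase (-6.79, SE 0.15), Glrx5, the mitochondrial glutaredoxin of iron-sulfur cluster assembly (-6.3, SE 0.22), and Txnrd2, mitochondrial thioredoxin reductase (-6.06, SE 0.25). Txnrd3 (3.4, SE 0.34) stood farthest toward cortex. Of the 12 oxidant sources 7 were tested. All 12 had a count in every control cortex library, but only 7 in every control blood library used. The filter thus left out genes without a count in some blood library. Of the 7 tested 7 differed, with 6 higher in blood, among them the phagocyte oxidase genes Cybb (-7.96, SE 0.23) and Ncf4 (-8.26, SE 0.48). Of the selenoprotein genes 7 of 9 differed, 5 higher in cortex. Ccs was lower in cortex (-2.07, SE 0.18) and Prdx4 higher (1.32, SE 0.21). Values between 0 and about the size of the shift toward blood turn to higher in cortex with library totals.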

How the data were processed

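RNA was sequenced from 12 blood and 12 cortex libraries. Per the methods, the authors trimmed reads with Trimmomatic, aligned them to mm10 with HISAT2 and deposited gene counts made with featureCounts 1.5.0-p3 on Gencode annotation. Strand use is not given in the sources used here. A column of the authors' mean RPKM was not used. The counts were fitted with edgeR 4.0.16 (R 4.3.3), TMM scaling and its quasi-likelihood test, over genes counted at least 1 time in each library fitted, with exposure, sex and RNA integrity as terms (exposure and RNA integrity within a sex, tissue and sex between tissues). P-values were adjusted by Benjamini-Hochberg over all genes tested, with a threshold of 0.05. V2 was left out of blood fits. DESeq2 1.42.0 and limma 3.58.1 (voom) were alternatives. Single members were tested by two-sided exact permutation. Copies were sought with BLAST 2.17.0. The members and gene lists were chosen with earlier results of these data known. Named were all members and, from each other list, the genes with the smallest p-values. Some genes of the list of oxidant sources are not reported here. Library totals are in the report, and limits from a count of 0 cover counting error only, whereas the 95% intervals come from edgeR and include the spread between libraries. The fits were tested on simulated data.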

Additional observations from a re-analysis of the deposited data

Results flagged for a closer look

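In groups of 4 to 10 libraries, the highest or lowest value was set against the gap to the next with Dixon's criterion. Of 50 groups tested 8 were flagged, 4 of them groups to which V2, left out because it stands apart, had been put back. Chance flags about 1 in 20 groups. V3, an nPM female, was high among the nPM blood libraries for Prdx1 (20.5 scaled CPM, next 11.6) and Prdx6 (17.5, next 10.3), and it also had the highest platelet marker sum in blood. With V2 put back among the control blood libraries, it was high in plain CPM for Prdx1 (100.4, next 12.4), Prdx5 (46.6, next 4.79), Prdx6 (25.5, next 12.3) and Sod1 (22, next 12.4). In cortex, V23, an nPM male, was low for Prdx5 among the nPM libraries (111 scaled CPM, next 123), and V24, a control male, was high for Sod2 among the controls (177, next 154). The causes were not tested.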

How the results depend on the processing

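The count of members past the adjusted threshold was 0 under each alternative run for nPM in cortex and in blood with both sexes together and in males. With an unadjusted p under 0.05, RLE scaling in cortex gave 1 member (Gpx1) in place of 0, and a filter of 1 count in any library gave 1 (Sod1) in blood in place of 0. For cortex females, 1 fit of both sexes gave 0 members past the adjusted threshold in place of 1. DESeq2 gave 1 in the cortex sex term (Gpx4) and 2 between control males and females in place of 0. In blood females, leaving out RNA integrity or using all 12 libraries gave 1 member with an unadjusted p under 0.05 in place of 3, and in the blood sex term DESeq2 and voom gave 5 and no RNA integrity term gave 0, in place of 3. Leaving out each library in turn, the members past the adjusted threshold ranged from 0 to 1 in cortex females, 0 to 3 in blood females (3 without V18, where 571 of 11281 genes passed against 2 with it) and 0 to 1 between control sexes (1 without V16). Members with an unadjusted p under 0.05 ranged from 0 to 1 in cortex (1 without V9 or V10), 0 to 1 in blood (1 without V21 or V5), 1 (without V12) to 4 in cortex females, 2 (without V23) to 5 in the cortex sex term, 0 (without V4) to 5 (without V18) in blood females, 0 to 1 in blood males (1 without V7 or V8), 1 (without V4) to 7 (without V7) in the blood sex term, 3 (without V10) to 7 (without V16) between control sexes and 0 to 1 between nPM sexes. The share of all genes with an unadjusted p under 0.05 in each fit without 1 library is not given here. The member counts of those fits therefore cannot be set against it. With every library used, that share ran from 2.64% between nPM sexes to 15.4% in cortex females. Between tissues, library totals turned the log2 difference, cortex over blood, of Gpx4 to 2.18, Prdx1 to 3.68, Prdx3 to 1.71, Prdx6 to 3.32, Sod1 to 3.52 and Sod2 to 3.44, and a minimum of 10 counts turned Prdx1 to 0.27 and Sod1 to 0.10.

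Over all genes, calls for nPM in cortex were 3, against 22 by DESeq2, 185 with 1 count in any library and 1 without RNA integrity or with lane. In blood they were 0, against 1 by DESeq2 and 28 with 1 count in any library. In cortex females they were 241, against 443 by DESeq2 and 0 in 1 fit of both sexes, and in the cortex sex term 0, against 50 by DESeq2. Where these differ the cause was not tested. No paired analysis was possible because the replicate numbers only name samples and no label ties a blood library to a cortex library of the same animal.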
